A study of Mus musculus with 6 samples.

Results

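Chemokine ligands are small secreted or membrane-bound proteins that guide the movement of leukocytes. They were examined here in the intestine of newborn mice treated for 5 days. The ligands were the genes named Ccl, Cxcl, Cx3cl1 or Xcl1 in the deposited tables, taken by name and not by value. The rule matched 45 rows, which came to 39 genes out of 54532, since 5 names had more than 1 row and the row with most counts was kept. RNA was sequenced from intestine of newborn C57BL/6 mice, an inbred strain, in 3 libraries after NECA and 3 libraries after DMSO. NECA (N-ethylcarboxamidoadenosine) is an analogue of adenosine that activates several adenosine receptors, and DMSO is the solvent given to the control group. Both groups share strain, age, tissue and duration, and no genetic change is given for either. The labels name neither the segment of bowel nor the route or dose of NECA, and they leave unsaid whether tissue was pooled and whether replicates are different animals.

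Chemokines act by binding receptors that signal through G proteins on the arriving cell, and most are held on glycosaminoglycans near the cells that make them. The position of the first cysteines in the protein gives the families their names: adjacent in CC ligands, separated by 1 residue in CXC ligands and by 3 in CX3CL1. In the intestine some ligands are made steadily by epithelium or stroma and serve the homing of lymphocytes, while others are made on demand by epithelium, macrophages and fibroblasts after cytokine or microbial signals. The coding stretches below show that spacing for the ligand with the highest level, for Ccl25, whose NECA libraries all lay above those of DMSO, for Cxcl12 of the stroma, and for Ccl24 and Cxcl15, lower in every NECA library than in any DMSO library. They are read 5′ to 3′ on the coding strand from GENCODE M21 transcripts (GRCm38), with 4 codons on each side, and the capitals mark the cysteine codons.
Cx3cl1: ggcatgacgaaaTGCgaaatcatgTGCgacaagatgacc
Ccl25: gcctttgaagacTGCTGCctgggttaccag
Ccl24: atcccctcatctTGCTGCacgtcctttatt
Cxcl12: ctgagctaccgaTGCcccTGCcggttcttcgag
Cxcl15: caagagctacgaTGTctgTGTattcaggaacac

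The NECA libraries held 15917018 to 18065078 counts and the DMSO libraries 15531996 to 17922697. Ligands together held 663, 657 and 705 CPM (counts scaled to library size with TMM factors) in NECA replicates 1 to 3, against 673, 499 and 710 CPM in DMSO replicates 1 to 3. A pair of libraries stood apart. NECA replicate 2 had the lowest median correlation with the other libraries across genes, 0.942 against 0.968 to 0.984, and it held 2528 CPM of 5 ileal markers, against 258 and 499 CPM in the other NECA libraries and 185 to 466 CPM in DMSO. Of 5 proximal markers it held 337 CPM, against 850 and 981 CPM in the other NECA libraries and 1029 to 1168 CPM in DMSO. The proximal sums of the other NECA libraries also lay below all DMSO sums, while their ileal sums overlapped those of DMSO. Single ileal markers differed within both groups. Fabp6 was at 0, 1913 and 150 CPM in NECA replicates 1 to 3 and 0.0558, 0.201 and 135 CPM in DMSO replicates 1 to 3. Fgf15 was at 4.20, 97.2 and 31.5 CPM in NECA and 0, 0 and 14.4 CPM in DMSO, in the same order. Proximal markers were lower in NECA in 5 of 5 genes, where 51% of all tested genes had a fold change below 0. For 3 proximal markers every NECA library lay below every DMSO library, as in 7.16% of all tested genes. Ileal markers were higher in NECA in 5 of 5, all with overlap, where 7764 of 15847 tested genes were higher. Pdx1, a transcription factor of the duodenum, was at 1.87, 0.199 and 0.632 CPM in NECA replicates 1 to 3 and 15.7, 10.9 and 2.31 CPM in DMSO replicates 1 to 3, a log2 fold change of -3.46 (SE 0.88, edgeR unadjusted p = 0.00477, adjusted p = 0.738). Cyp2b10 alone of the proximal markers had a library at 0, NECA replicate 2. Of 4 colon markers, 3 were tested, 1 lower and 2 higher in NECA. Their sums overlapped, at 125 to 566 CPM in NECA and 217 to 438 CPM in DMSO. The lower one, Aqp8, had no overlap between the groups. The part of bowel position in the ligand values below was not tested. DMSO replicate 2 was lowest in several stromal and myeloid ligands described below. Epithelial markers fitted the labelled tissue: all 8 on the list had counts in every library.

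No ligand passed the test. Of 15847 genes tested with edgeR's quasi-likelihood test, 0% had a Benjamini-Hochberg adjusted p under 0.05, and none of the 23 tested ligands did, with a smallest adjusted p of 0.738. At an unadjusted p under 0.05, where 5.48% of all genes lay, there were 4 ligands. Cxcl15, Ccl2 and Ccl24 were lower in NECA, as were 3.03% of all genes at that p, and Ccl25 was higher, as were 2.45%. In 6 of the 23 ligands NECA and DMSO libraries were fully separated, against 13.7% of all genes tested. Of those 6, 5 were lower in NECA (Cxcl15, Ccl2, Ccl7, Ccl24 and Ccl27a), a direction in which 7.16% of all genes lay, and Ccl25 was higher, where 6.49% lay. The fold change was below 0 in 16 of the 23 ligands, against 51% of all genes. The median log2 fold change of the 23 was -0.25 and that of all genes -0.01. With a minimum count of 50, which kept 14 ligands, their median was 0.0049. These are whole pieces of bowel, in which fewer cells of a type and less RNA per cell cannot be told apart.

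Levels per transcript length, as FPKM, differed by orders of magnitude between ligands. Cx3cl1 held 22.8% of the summed FPKM of all 39, Ccl6 12.7%, Ccl25 11.0%, Cxcl14 9.47%, Ccl11 9.20% and Ccl24 8.36%. With Cxcl16 and Cxcl12 these genes made up 83.0% of the sum. Neighbours in this order were close: the means over 6 libraries were 19.6 FPKM for Cxcl14, 19.0 FPKM for Ccl11 and 17.3 FPKM for Ccl24, less apart than the libraries of any of them.

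**Figure D1:**
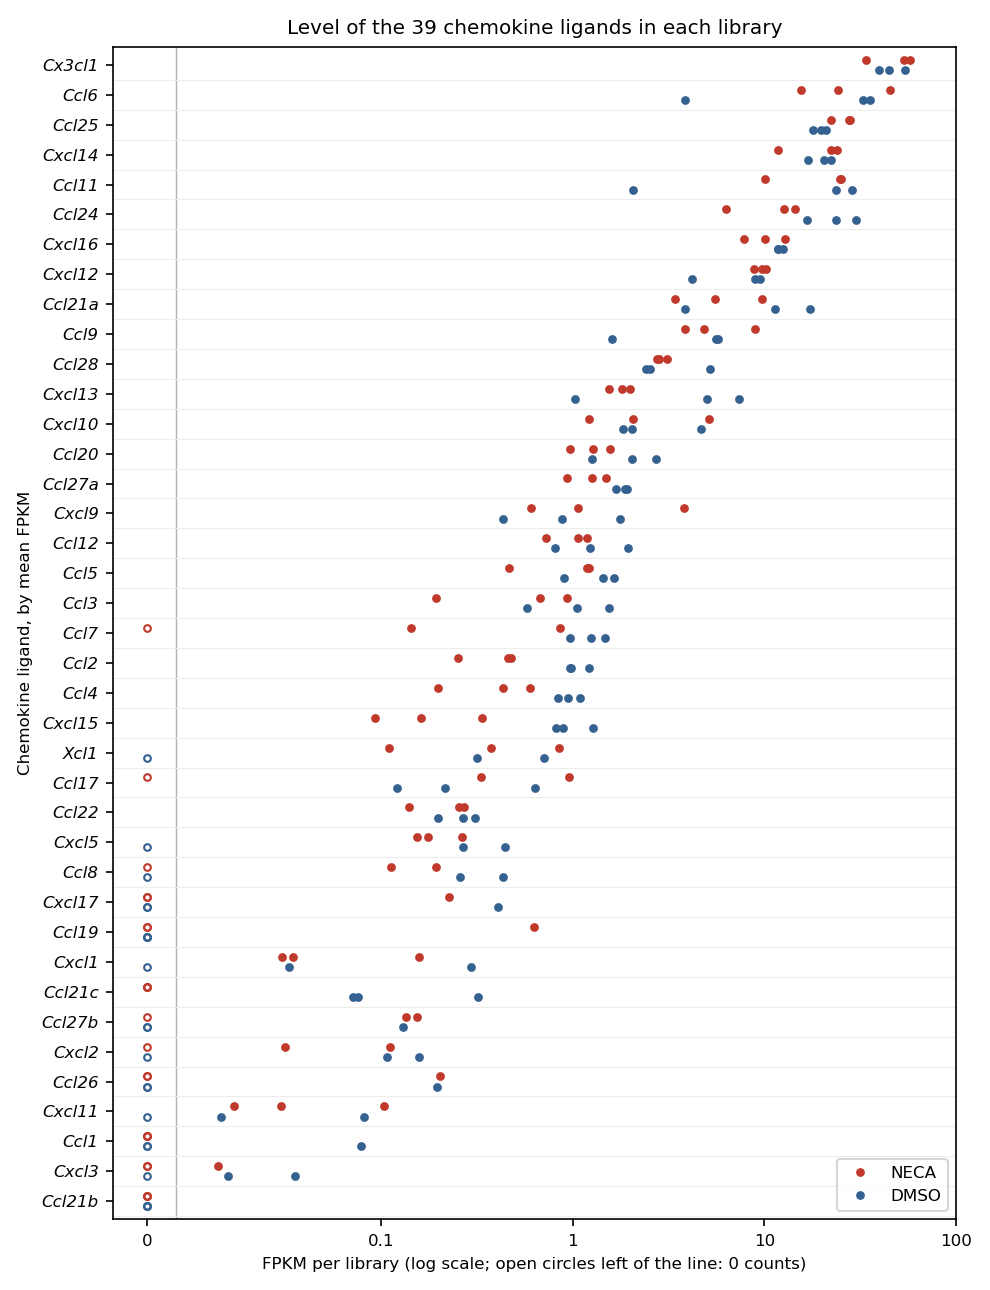
FPKM of each of the 39 ligands (rows, by mean FPKM) in each library on a log axis, with NECA libraries in red above DMSO libraries in blue; open circles at the left are libraries with 0 counts. Cx3cl1 is at the top with a mean of 47.2 FPKM and Ccl21b, with 0 counts in all libraries, is at the bottom.

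The ligand with the highest level, Cx3cl1 (ENSMUSG00000031778, chromosome 8, 94772009 to 94782427 on the plus strand of GRCm38, as for all positions here), encodes fractalkine, a chemokine on a membrane-anchored stalk that binds CX3CR1 on macrophages. It was at 224, 135 and 212 CPM in NECA replicates 1, 2 and 3 and at 176, 158 and 215 CPM in DMSO replicates 1, 2 and 3, and values of each group are given in this order from here on. The lowest value was that of NECA replicate 2, the groups overlapped, and the log2 fold change was 0.05 (SE 0.23). Its direction turned to below 0 when DMSO replicate 2, NECA replicate 1 or NECA replicate 3 was left out. The receptor gene Cx3cr1, which marks intestinal macrophages, was at 10.9, 11.1 and 12.9 CPM in NECA and 23.5, 14.4 and 19.9 CPM in DMSO. All NECA libraries thus lay below all DMSO libraries for the receptor, with a log2 fold change of -0.73 (SE 0.22, edgeR unadjusted p = 0.0103, adjusted p = 0.738).

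Cxcl12 (chromosome 6, 117168535 to 117181367, plus strand), a ligand of stromal cells that retains CXCR4-bearing cells, was at 79.2, 83.8 and 72.9 CPM in NECA and 78.1, 34.8 and 73.8 CPM in DMSO. Apart from DMSO replicate 2 the libraries lay within a narrow span, and the log2 fold change was 0.34 (SE 0.28), or 0.05 without that library. Its signalling receptor Cxcr4 was at 4.07, 2.34 and 3.39 CPM in NECA and 7.2, 7.56 and 3.69 CPM in DMSO, a log2 fold change of -0.92 (SE 0.36, edgeR unadjusted p = 0.0343, adjusted p = 0.738). The highest NECA library was above the lowest DMSO library, so the groups overlapped for Cxcr4. Ackr3, a scavenging receptor for CXCL12, was at 15.2, 10.2 and 14.2 CPM in NECA and 17.2, 15.8 and 15.8 CPM in DMSO (log2 fold change -0.30, SE 0.19). Its libraries did not overlap, with NECA below DMSO. Mesenchymal markers, 5 of 5 tested, summed to 2532 to 3148 CPM in NECA and 2325 to 3378 CPM in DMSO, with DMSO replicate 2 the lowest, and none was at 0. Their part in the Cxcl12 values was not tested.

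Cxcl16 (chromosome 11, 70453983 to 70459984, minus strand) encodes the other membrane-anchored chemokine, which binds CXCR6 and also takes up oxidised lipoprotein. It was at 38.2, 24.0 and 30.4 CPM in NECA and 38.0, 36.5 and 35.9 CPM in DMSO. The DMSO libraries were tightly grouped, the first NECA library was level with them and the other NECA libraries lay below, for a log2 fold change of -0.25 (SE 0.19). It was -0.10 without NECA replicate 2 and -0.43 without NECA replicate 1. The gene overlaps Zmynd15 on the opposite strand, which had 42 to 87 counts per library (0.12, SE 0.33). Cxcr6 was at 1.87, 1.89 and 1.61 CPM in NECA and 2.34, 0.669 and 1.81 CPM in DMSO, with overlap. Xcl1, made by lymphocytes for dendritic cells that carry XCR1, had 22 counts over all libraries and was not tested.

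Among ligands of the epithelium and mucosa, Ccl25 (ENSMUSG00000023235, chromosome 8, 4325210 to 4360020, plus strand) had the highest mean level per length, 22.8 FPKM. It encodes the small-bowel chemokine that draws CCR9-bearing lymphocytes. It was at 165, 208 and 209 CPM in NECA and 148, 137 and 158 CPM in DMSO, or 194 ± 25.4 CPM and 147 ± 10.6 CPM (SD, n = 3 each). Every NECA library was above every DMSO library, with a log2 fold change of 0.40 (SE 0.16, edgeR unadjusted p = 0.0418, adjusted p = 0.738). Leaving out each library in turn gave 0.34 to 0.50, always above 0. The gene overlaps Elavl1 on the opposite strand, which had a log2 fold change of -0.15 (SE 0.20), and reads cannot be assigned to a strand here. Ccr9 was low, at 1.36, 0.947 and 1.32 CPM in NECA and 1.12, 1.14 and 1.13 CPM in DMSO, with overlap.

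Ccl27a and Ccl28 encode ligands of CCR10, which guides antibody-secreting cells and skin-homing T cells. Ccl27a (chromosome 4, 41769467 to 41774247, minus strand) was at 2.97, 2.24 and 3.56 CPM in NECA and 4.02, 4.68 and 4.50 CPM in DMSO, all NECA libraries below all DMSO libraries. Its log2 fold change was -0.59 (SE 0.27, edgeR unadjusted p = 0.0633, adjusted p = 0.738). It overlaps Il11ra1, which encodes an interleukin 11 receptor chain on the other strand and had 551, 596 and 812 counts in NECA against 835, 1087 and 698 counts in DMSO, a log2 fold change of -0.54 (SE 0.25). The counts of both genes were thus lower in NECA by a like amount. How many bases the genes share was not determined, and without strand, reads in shared bases cannot be told apart. Ccl28 (chromosome 13, 119623819 to 119654359, plus strand) was at 13.2, 15.3 and 13.8 CPM in NECA and 25.6, 12.0 and 12.3 CPM in DMSO. DMSO replicate 1 alone was high, and its log2 fold change of -0.24 (SE 0.31) was 0.20 without that library. Ccr10 had 1 to 8 counts per library and was not tested.

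Cxcl14 (chromosome 13, 56288643 to 56296551, minus strand) encodes a chemokine made steadily by epithelium and stroma, with antimicrobial activity. It was at 43.4, 21.7 and 40.9 CPM in NECA and 31.0, 38.1 and 41.2 CPM in DMSO, with NECA replicate 2 the lowest and the others overlapping. The log2 fold change was -0.06 (SE 0.27), and 0.20 without NECA replicate 2. Ccl20, made by epithelium over lymphoid follicles for CCR6-bearing cells, had a mean of 1.81 ± 0.422 CPM in NECA and 2.89 ± 1.05 CPM in DMSO (SD, n = 3 each), with overlap and a log2 fold change of -0.67 (SE 0.37). Ccr6 had at most 15 counts in a library. Cxcl17 and Ccl27b had 8 and 3 counts in all. Transcripts of Ccl27a and Ccl27b are 99.3% identical over 425 aligned bases, so the split of counts between the rows of these genes is uncertain.

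**Figure D2:**
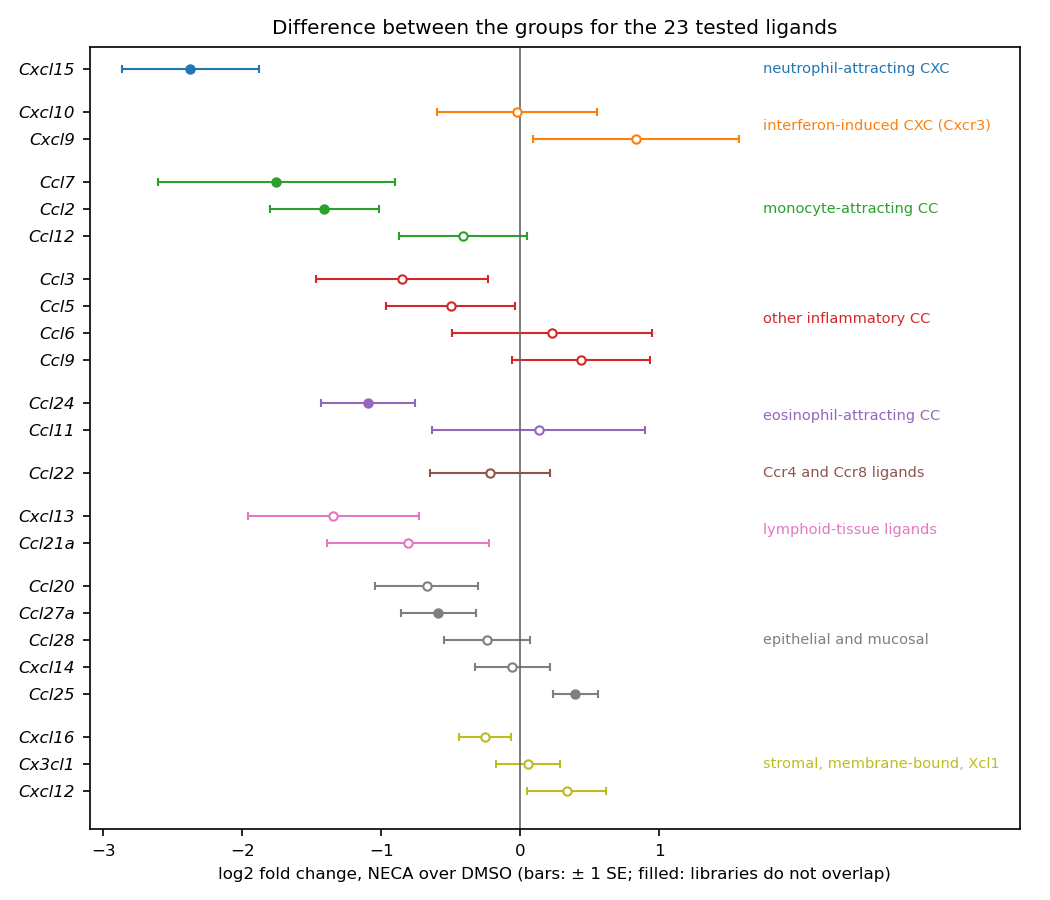
Log2 fold change, NECA over DMSO, of the 23 tested ligands, grouped by role from top to bottom, with bars of ± 1 SE and filled points where the libraries of the groups did not overlap. Cxcl15 is farthest to the left at -2.38, Cxcl9 is farthest to the right at 0.84 with overlapping libraries, and Ccl25 is the filled point above 0.

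Eosinophils are drawn by the eotaxins through CCR3. Of the 3 eotaxin genes, Ccl24 and Ccl11 were tested. Ccl24 (ENSMUSG00000004814, chromosome 5, 135569937 to 135573049, minus strand), made largely by macrophages and epithelium, was at 16.3, 8.28 and 18.7 CPM in NECA and 39.5, 31.1 and 21.8 CPM in DMSO. Each NECA library was below each DMSO library, although NECA replicate 3 and DMSO replicate 3 were close. The log2 fold change was -1.09 (SE 0.34, edgeR unadjusted p = 0.0127, adjusted p = 0.738), with -1.32 to -0.81 when each library was left out in turn. On the per-length scale this gene was at 11.1 ± 4.26 FPKM in NECA and 23.5 ± 6.79 FPKM in DMSO (SD, n = 3 each).

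Ccl11 (chromosome 11, 82057823 to 82062955, plus strand), the eotaxin of fibroblasts and macrophages that populates the gut with eosinophils, was at 27.1, 11.0 and 27.0 CPM in NECA and 25.7, 2.28 and 31.1 CPM in DMSO. The replicates numbered 2 were low in both groups and lowest in DMSO, the groups overlapped, and the log2 fold change was 0.13 (SE 0.77). Without DMSO replicate 2 it was -0.39, and it was also below 0 without NECA replicate 1 or NECA replicate 3. Ccl26 had 2 counts in all. Their receptor Ccr3 had 0, 2 and 1 counts in NECA and 0, 0 and 20 counts in DMSO, too few for the test.

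Monocyte-attracting ligands were scarce. Ccl2 (ENSMUSG00000035385, chromosome 11, 82035571 to 82037453, plus strand), the main ligand of CCR2 on monocytes, had 8, 11 and 5 counts in NECA and 20, 21 and 18 counts in DMSO. The groups did not overlap, and the log2 fold change was -1.41 (SE 0.39, edgeR unadjusted p = 0.0076, adjusted p = 0.738). Leaving out each library in turn gave -1.58 to -1.17. Ccl7 (chromosome 11, 82045712 to 82047525, plus strand), a neighbour of Ccl2 that binds CCR2 and CCR3, had 0, 14 and 2 counts in NECA and 14, 18 and 16 counts in DMSO. NECA replicate 2 was just below the lowest DMSO library on the CPM scale, 0.698 CPM against 0.781 CPM, while the other NECA libraries were at or near 0. Its log2 fold change was -1.76 (SE 0.85, edgeR unadjusted p = 0.0747, adjusted p = 0.738), and -3.87 without NECA replicate 2. Ccl12, another ligand of CCR2, had 6 to 13 counts in NECA and 7 to 16 counts in DMSO, a log2 fold change of -0.41 (SE 0.46). Ccl8 had 9 counts in all.

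The receptor Ccr2 was at 0.711, 1.74 and 2.01 CPM in NECA and 4.07, 1.0 and 1.44 CPM in DMSO, with overlap and DMSO replicate 1 the highest. Macrophage markers were lower in NECA in 7 of 7 genes, with 2 of them, Cd68 and Mrc1, at an edgeR unadjusted p under 0.05 and 0 past the adjusted threshold. Over all genes tested, 51% were lower and 3.03% were lower at that p. Summed, they were at 243 to 613 CPM in NECA and 525 to 636 CPM in DMSO, none was at 0 in any library, and NECA replicate 2 was the lowest. The part of macrophage markers in the values of Ccl2, Ccl7 and Ccl24 was not tested. Markers of T cells and innate lymphoid cells were likewise lower in NECA in 7 of 7 genes, with 0 past the adjusted threshold. Only Cd4 had an edgeR unadjusted p under 0.05 (0.0239, adjusted p = 0.738), and its groups did not overlap. Summed, these lymphoid markers were at 20.2 to 22.2 CPM in NECA and 23.6 to 32.1 CPM in DMSO.

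A further group of CC ligands draws monocytes, neutrophils and T cells. Ccl6 and Ccl9 are rodent genes that lie beside each other on chromosome 11 and encode ligands of CCR1. Ccl6 (83587882 to 83593087, minus strand) was at 27.5, 82.5 and 43.5 CPM in NECA and 59.4, 7.03 and 64.6 CPM in DMSO. Ccl9 (83572919 to 83578636, minus strand) was at 11.7, 27.4 and 14.8 CPM in NECA and 17.5, 4.95 and 17.3 CPM in DMSO. Each gene peaked in NECA replicate 2 and had its minimum in DMSO replicate 2, and the groups overlapped. The log2 fold changes were 0.23 (SE 0.72) for Ccl6 and 0.44 (SE 0.50) for Ccl9. The value for Ccl6 turned to -0.30 when NECA replicate 2 was left out and to -0.28 when DMSO replicate 2 was, and for Ccl9 it was -0.0047 without NECA replicate 2. Ccr1 was at 6.79, 12.4 and 8.61 CPM in NECA and 10.5, 7.43 and 12.8 CPM in DMSO, and it too was highest of NECA in replicate 2 and lowest of DMSO in replicate 2.

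The inducible members of the group, Ccl3, Ccl4 and Ccl5, were near the limit of detection. Ccl5 had 9 to 20 counts in NECA and 14 to 25 counts in DMSO (log2 fold change -0.50, SE 0.46), and Ccl3 had 3 to 11 counts in NECA and 8 to 18 counts in DMSO (-0.85, SE 0.62). Ccl4, which did not pass the filter on low counts, had 2, 8 and 5 counts in NECA and 10, 11 and 10 counts in DMSO. Each of these genes thus had its lowest count in a NECA library, with overlap for Ccl3 and Ccl5.

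**Figure D3:**
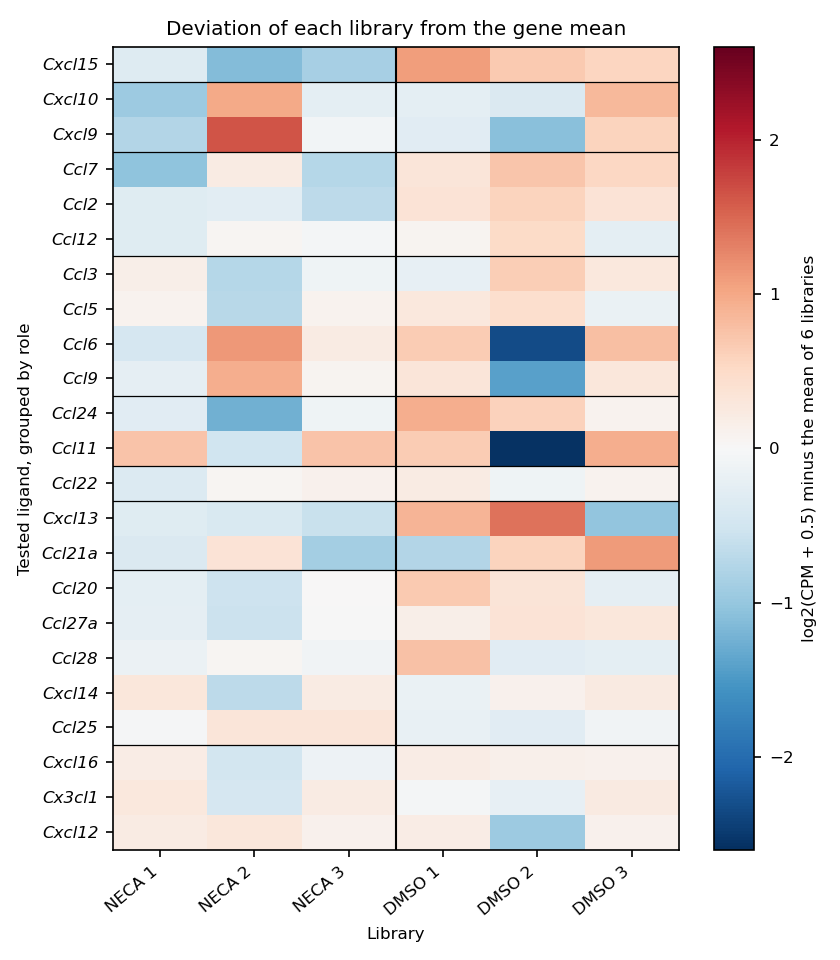
Deviation of log2(CPM + 0.5) of each library from the mean of the 6 libraries, for the 23 tested ligands grouped by role, with NECA libraries in the left columns and DMSO libraries in the right ones. The darkest blue cells are Ccl11 and Ccl6 in DMSO replicate 2, and the darkest red cell is Cxcl9 in NECA replicate 2.

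Cxcl9 and Cxcl10 are induced by interferons and draw CXCR3-bearing T and NK cells. Cxcl9 (chromosome 5, 92321347 to 92328079, minus strand) was at 1.81, 11.7 and 3.21 CPM in NECA and 2.68, 1.34 and 5.38 CPM in DMSO. Cxcl10 (chromosome 5, 92346638 to 92348889, minus strand) was at 2.71, 11.7 and 4.65 CPM in NECA and 4.63, 4.22 and 10.6 CPM in DMSO. For both genes NECA replicate 2 was the highest of all libraries and DMSO replicate 3 the highest of its group, and the groups overlapped. The log2 fold change was 0.84 (SE 0.74) for Cxcl9, or -0.31 without NECA replicate 2. For Cxcl10 it was -0.02 (SE 0.57), and it was 0.53 without DMSO replicate 3 and -0.81 without NECA replicate 2. It overlaps Art3 on the opposite strand, which had a log2 fold change of -0.37 (SE 0.26). Cxcl11, which M21 annotates as a polymorphic pseudogene, had 17 counts in all, 8 of them in NECA replicate 2. Cxcr3 was at 0.517, 0.997 and 0.861 CPM in NECA and 0.893, 0.134 and 0.875 CPM in DMSO, with overlap.

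Since the values of Cxcl9 and Cxcl10 had like patterns over libraries, the 250 bases before their starts are shown, read 5′ to 3′ on the minus strand from RefSeq (GRCm38.p6), Cxcl9 at chr5:92328080-92328329 and Cxcl10 at chr5:92348890-92349139. Capitals mark matches, on either strand, to a kappaB-like motif (GGGANNNNCC) and to a motif like the interferon-stimulated response element (GAAANNGAAA).
Cxcl9: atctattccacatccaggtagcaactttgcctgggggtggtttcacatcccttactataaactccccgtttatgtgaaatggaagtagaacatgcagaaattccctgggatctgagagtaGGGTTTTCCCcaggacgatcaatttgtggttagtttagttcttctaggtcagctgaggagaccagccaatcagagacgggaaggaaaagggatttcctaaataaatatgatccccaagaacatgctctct
Cxcl10: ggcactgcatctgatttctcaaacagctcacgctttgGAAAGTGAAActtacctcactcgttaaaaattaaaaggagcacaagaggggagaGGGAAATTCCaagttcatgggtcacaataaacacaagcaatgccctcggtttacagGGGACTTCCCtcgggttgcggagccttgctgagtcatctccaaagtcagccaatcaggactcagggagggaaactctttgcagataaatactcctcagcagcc

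The Cxcl9 window holds 1 kappaB-like match, and the Cxcl10 window holds 2 together with 1 match to the response element. RefSeq windows were found for 27 of the 39 ligands, 33 windows in all. The kappaB-like letters were in 13 of these 33 windows (39.4%) and in 17.6% of all 32851 windows of the same length. The response element letters were in 3 of 33 (9.09%) and in 2.98% of all windows. Letters of the interferon gamma activated site (TTCNNNGAA) were in 6.06% of ligand windows and 7.02% of all windows, those of AP-1 (TGANTCA) in 12.1% and 6.75%, and those of the cyclic AMP response element (TGACGTCA) in 0 of 33 and 1.55%. All motifs were searched on both strands, matches may overlap, and several ligand windows belong to copied genes. A match describes letters and not binding.

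Neutrophil-attracting CXC ligands, most of which signal through CXCR2, lie in a cluster on chromosome 5. Cxcl15 (ENSMUSG00000029375, 90794534 to 90803067, plus strand), known as lungkine from its expression in mouse lung epithelium, was the only one of 5 that passed the filter. It had 11, 4 and 6 counts in NECA and 49, 29 and 28 counts in DMSO. The groups stood well apart, and the log2 fold change of -2.38 (SE 0.49) had the smallest unadjusted p of the ligands (edgeR, 0.00148, adjusted p = 0.738). Left out in turn, each library gave a value between -2.96 and -2.02. On the per-length scale it was low in both groups, with means of 0.197 ± 0.126 FPKM in NECA and 0.994 ± 0.245 FPKM in DMSO (SD, n = 3 each).

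The other neutrophil ligands were nearly absent. Cxcl5 had 43 counts in all, Cxcl1 19, Cxcl2 14 and Cxcl3 4, of which DMSO replicate 1 held 15, 10, 4 and 1. Cxcr2 had at most 8 counts in a library. Of 7 neutrophil markers, 4 were tested, and summed they were at 3.14 to 4.99 CPM in NECA and 4.94 to 10.6 CPM in DMSO. Csf3r (log2 fold change -1.14, SE 0.38, no overlap) and Ngp (-1.76, SE 0.71, overlap) were lower in NECA at an edgeR unadjusted p under 0.05, where 3.03% of all genes lay. The log2 fold changes of S100a8 and S100a9 were 0.62 (SE 0.53) and 0.24 (SE 0.66), both with overlap. Ly6g and Elane, which define mature and immature neutrophils, were at 0 in 5 and 4 libraries. The proximal marker Pdx1 also separated the groups, and its libraries stood in the same order as those of Cxcl15 within each group. The part of these markers in the Cxcl15 values was not tested.

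The ligands of lymphoid tissue are made by stromal cells of follicles and T cell zones and by lymphatic endothelium. Cxcl13 (chromosome 5, 95956951 to 95961068, plus strand), which draws CXCR5-bearing B cells into follicles, was at 2.26, 2.09 and 1.78 CPM in NECA and 5.80, 8.63 and 1.19 CPM in DMSO. DMSO replicates 1 and 2 were above the NECA libraries and DMSO replicate 3 below them, so the groups overlapped, with a log2 fold change of -1.34 (SE 0.62, edgeR unadjusted p = 0.0618, adjusted p = 0.738). It was -0.78 without DMSO replicate 2 and -1.81 without DMSO replicate 3. Cxcr5 was at 0.775, 0.648 and 0.517 CPM in NECA and 1.23, 1.41 and 0.5 CPM in DMSO, with the same order of DMSO libraries. B cell markers were lower in NECA in 7 of 7 genes, with 5 at an edgeR unadjusted p under 0.05 and 0 past the adjusted threshold, against 51% and 3.03% of all genes tested. Summed they were at 8.92 to 19.2 CPM in NECA and at 20.5 to 80.2 CPM in DMSO, with DMSO replicate 3 the lowest of its group. Their part in the Cxcl13 values was not tested.

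Ccl21 and Ccl19 bind CCR7 on T cells and dendritic cells, and in mouse both exist in several near-identical copies on chromosome 4. The row named Ccl21a with most counts, which is not in GENCODE M21, had 34, 79 and 24 counts in NECA and 28, 70 and 112 counts in DMSO, with overlap and a log2 fold change of -0.81 (SE 0.58). Leaving out DMSO replicate 3 gave -0.30 and leaving out NECA replicate 3 gave -0.51, while -1.29 resulted when NECA replicate 2 was dropped and -1.23 when DMSO replicate 1 was. A row under another name, Gm10591, held more: 38, 95 and 16 counts in NECA and 202, 35 and 179 counts in DMSO, or 60.5% of the 934 counts on rows of Ccl21 genes. Over the 402 coding bases the M21 transcript of Gm10591 equals that of Ccl21b and has 2 substitutions from that of Ccl21a, T84A and C194T (the base of Ccl21a, the position from the first base of the start codon, the base of Gm10591). The M21 Ccl21a compared here is another row of that name, with 13 counts in all. The sequence of the Ccl21a row with most counts was not compared. The stretches of 41 coding bases around the substituted positions are given 5′ to 3′, with the differing base in capitals.
Ccl21a, bases 64 to 104: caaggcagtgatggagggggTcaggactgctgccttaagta
Gm10591, bases 64 to 104: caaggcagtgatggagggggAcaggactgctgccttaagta
Ccl21a, bases 174 to 214: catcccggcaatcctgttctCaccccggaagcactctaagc
Gm10591, bases 174 to 214: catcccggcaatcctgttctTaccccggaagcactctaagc

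How reads that match several copies were assigned is not given in the sources used here, so the split between these rows is uncertain. Their sum was 72, 178 and 41 counts in NECA and 237, 108 and 298 counts in DMSO. NECA replicate 2 was above DMSO replicate 2, so the groups overlapped in the sum as well. Entered as 1 gene, a choice made after the counts were seen, it had a log2 fold change of -1.29 (SE 0.51, edgeR unadjusted p = 0.0362, adjusted p = 0.738). Ccl21b had 0 counts in every library, where 3 counts correspond to 0.15 to 0.201 CPM, and Ccl21c had 0 counts in NECA and 5, 1 and 1 in DMSO. Ccl19 had 11 counts, all in NECA replicate 2, and with its near-identical copies 0, 18 and 0 counts in NECA and 4, 25 and 0 counts in DMSO. Ccr7 was at 0.194, 0.698 and 0.0574 CPM in NECA and 1.40, 2.68 and 0.0625 CPM in DMSO. It was higher in replicate 2 than in the others of each group, with overlap. Of 6 markers of lymphatic and lymphoid stroma, 5 were tested. Of those, 4 were higher in NECA, all with overlap, where 7764 of 15847 tested genes were higher. The other, Pdpn, was lower without overlap, at 8.92 to 13.2 CPM in NECA and 14.5 to 14.99 CPM in DMSO. In that direction 7.16% of all tested genes did not overlap. Summed, the 6 markers were at 89.1 to 143 CPM in NECA and 58.8 to 108 CPM in DMSO. Among these markers, Cr2 of follicular dendritic cells was at 0 in NECA replicate 3 and DMSO replicate 3. The part of the stromal markers in the Ccl21 values was not tested.

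**Figure D4:**
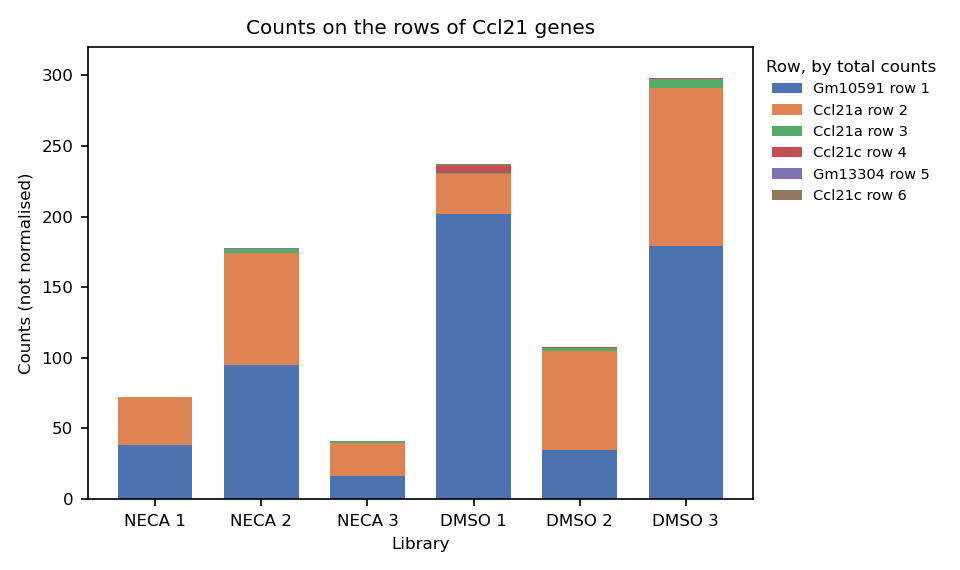
Counts, not normalised, on the 6 rows of Ccl21 genes that had any, stacked for each library, with NECA libraries on the left and DMSO libraries on the right. Gm10591 and 1 row of Ccl21a hold nearly all counts, and the share of Gm10591 differs between libraries.

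Ligands of CCR4 and CCR8, made mainly by dendritic cells and macrophages for regulatory and type 2 T cells, were also rare. Ccl22 had 5 to 12 counts in NECA and 7 to 13 counts in DMSO (log2 fold change -0.22, SE 0.43), with overlap. Ccl17 had 21 counts and Ccl1 had 3 in all. Ccr4 was at 1.23, 13.5 and 3.16 CPM in NECA and 1.17, 0.268 and 2.06 CPM in DMSO, a log2 fold change of 2.34 (SE 0.95, edgeR unadjusted p = 0.0394, adjusted p = 0.738). NECA replicate 2 was far above the rest, the other NECA libraries overlapped those of DMSO, and Ccr8 had at most 5 counts in a library.

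All 23 receptors on the list had a row in the tables and 16 passed the filter. Of these, 9 had a lower and 7 a higher level in NECA, none passed the adjusted threshold, and 3 had an edgeR unadjusted p under 0.05, against 5.48% of all genes: Cx3cr1, Cxcr4 and Ccr4, described above. The groups did not overlap for Cx3cr1, Ackr3 and Ackr1, with NECA below DMSO in each, as in 7.16% of all genes. Ackr1, which carries chemokines across venular endothelium, was at 0.840, 0.748 and 0.632 CPM in NECA and 1.28, 1.41 and 0.875 CPM in DMSO (log2 fold change -0.68, SE 0.36).

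Of 14 cytokines, receptors and signalling genes known to induce chemokines, 9 passed the filter, 8 of them lower in NECA, against 51% of all genes, and 0 past the adjusted threshold. None had an edgeR unadjusted p under 0.05. Irf1, an interferon-induced transcription factor, was at 148, 155 and 156 CPM in NECA and 173, 174 and 192 CPM in DMSO, with a log2 fold change of -0.23 (SE 0.14). Its groups did not overlap, with NECA below DMSO, as in 7.16% of all genes. Ifng, Il6, Il17a, Il22 and Lta had at most 6 counts in any library. Pf4, a platelet chemokine whose name lies outside the rule, had a log2 fold change of -0.05 (SE 0.26).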

How the data were processed

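The authors deposited 1 file per library, with raw counts per gene and, per the file headers, an FPKM value (fragments per transcript length and sequencing depth). Per the labels' protocols, SMARTer cDNA was PCR-amplified, fragmented and read from both ends. The submitters' processing notes name HISAT, StringTie, edgeR, mm10 and GRCm38; versions, strandedness and how multiply mapping reads were handled are not given in the sources used. Counts were filtered with filterByExpr (minimum count 10, minimum total 15), scaled with TMM and tested with edgeR 4.0.16 (R 4.3.3) by its quasi-likelihood test, NECA against DMSO, without covariates, two-sided, with Benjamini-Hochberg adjustment over 15847 genes and a threshold of 0.05. Levels of a gene between libraries are TMM-scaled CPM, and levels between genes are FPKM. The SE given with a log2 fold change is that value without its sign, divided by the square root of the F statistic of the quasi-likelihood test. The common biological coefficient of variation was 0.276. The scripts were tested on simulated counts.

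The ligands, the other gene lists and the markers were chosen with earlier results of these data known. Ligands with a mean of at least 5 CPM in either group, an unadjusted p under 0.05 or groups that did not overlap are given in every library; the others are given by counts and ranges. Of the 39, 23 were tested, 15 had too few counts and 1 had none. A ligand with enough counts in 1 group only could pass the filter through that group, as Cxcl15, Ccl2 and Ccl7 did through DMSO. Since nothing says that libraries are separate animals, p-values set the group difference against a spread between libraries that may be technical. The libraries were amplified and carry no molecular identifiers, so a floor of 3 counts covers counting error only. Positions are from GENCODE M21, which holds 54409 of the 54532 identifiers, and near-identical transcripts (98% identity over at least 250 bases) were found with blastn 2.17.0. Alternatives were DESeq2 1.42.0, its size factors, other filters, library quality weights (limma 3.58.1), the replicate number as a block, fits without each library and summed Ccl21 rows.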

Additional observations from a re-analysis of the deposited data

How the results depend on the processing

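No ligand and no receptor passed the adjusted threshold under any alternative run, and the smallest adjusted p of a ligand was 0.125, for Cxcl15 with DESeq2. Of all genes, edgeR without a filter called 2 and DESeq2 called 9. The median log2 fold change of the tested ligands was 0.0049 with a minimum count of 50, which leaves 14 ligands, and -0.42 to -0.30 with each library left out in turn. With library quality weights the log2 fold change turned in 4 ligands, to -0.32 for Ccl6, -0.10 for Ccl9, 0.20 for Cxcl14 and -0.13 for Cxcl9, and the cause was not tested. With each library left out in turn, 14 of 23 ligands kept their sign, 12 below and 2 above 0. The other 9 ranged from -0.39 to 0.63 for Ccl11, -0.30 to 0.62 for Ccl6, -0.0047 to 0.68 for Ccl9, -0.31 to 1.47 for Cxcl9, -0.81 to 0.53 for Cxcl10, -0.23 to 0.20 for Cxcl14, -0.076 to 0.25 for Cx3cl1, -0.43 to 0.20 for Ccl28 and -0.37 to 0.014 for Ccl22. Among those that kept it, Ccl12 ranged from -0.67 to -0.04, Ccl3 from -1.29 to -0.40, Ccl5 from -0.71 to -0.16 and Ccl20 from -0.92 to -0.40. The labels do not say that replicate numbers pair the libraries. Same-numbered libraries had correlations of their deviations from the group mean of 0.0242, -0.189 and -0.0355. Those of differently numbered libraries were -0.327 to 0.252. With 3 libraries per group, these values cannot decide whether libraries were paired. With the replicate number as a block, edgeR called 0 genes, with 628 at an unadjusted p under 0.05 against 868 without it. There were 4 ligands at that p in both fits, but with the block Ccl25 was no longer among them (edgeR unadjusted p = 0.0725, adjusted p = 0.805) and Ccl7 was (edgeR unadjusted p = 0.0490, adjusted p = 0.805). Depth limits what can be said of the 15 ligands with too few counts.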
